A study of Mus musculus with 8 samples.

Results

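The OAS antiviral genes Oas1a, Oas1b, Oas1c, Oas1g, Oas2, Oas3, Oasl1 and Oasl2 and the interferon regulatory factors Irf3 and Irf7 were followed through the 6 peak lists of an F1 mouse lung methylation study. These 10 genes were chosen by name, out of 36297 genes that the 6 lists name beside a peak, and a peak belonged to a gene when the list named that gene on either side. Peaks that overlapped a gene (a listed distance of 0) were counted apart from peaks that lay 1 to 15000 bp away. Of 329018 peaks in the 6 lists, 40 overlapped one of the 10 genes and 73 others lay within 15000 bp of one.

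Lung DNA came from male F1 progenies of C57Bl/6J dams. F0-HDM dams had been given house dust mite extract (HDM, 100 μg of protein) before mating and then through pregnancy and lactation, and F0-Saline dams an equal volume of PBS. The F1 males were sensitized at 6 weeks of age with HDM (F1-HDM) or saline (F1-Saline) and challenged with the same on d14, d18 and d21, and airway responsiveness was measured on d23. DNA of each of the 4 groups was pooled over mice of 3 dams and split into 1 MeDIP-seq library, which captures 5-methylcytosine (5mC), and 1 hMeDIP-seq library, which captures 5-hydroxymethylcytosine (5hmC). There are no replicates, and groups are compared without a test throughout. Each assay gave 3 lists. The double-HDM comparison set F0-HDM_F1-HDM against F0-Saline_F1-HDM, the maternal-HDM comparison F0-HDM_F1-Saline against F0-Saline_F1-Saline, and the adult-HDM comparison F0-Saline_F1-HDM against F0-Saline_F1-Saline. From the labels, peaks were taken to have been sought in the library named first, with the other as control. The lists of an assay share libraries and are not independent, and lists in the opposite direction were not analysed here.

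Oligoadenylate synthetases are interferon-induced enzymes that sense double-stranded RNA and make short oligoadenylates, which switch on RNase L to cut viral and cellular RNA. Irf3 is present before infection and is activated by the kinase Tbk1 after a virus is sensed, while Irf7 is itself induced by interferon and amplifies the type I interferon response. In the mouse, the Oas1, Oas2 and Oas3 genes form a cluster on chromosome 5, Oasl2 and Oasl1 lie beside each other elsewhere on that chromosome, and Irf3 and Irf7 are on chromosome 7. Most laboratory mice, C57BL/6 among them, carry an Oas1b with a premature stop, and the annotation lists it as a polymorphic pseudogene. Methylation of promoters is known for silencing, whereas 5hmC, made from 5mC by Tet enzymes, is found mostly over the bodies of genes.

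A peak in these lists is described by a shape score, which grows with how closely the read coverage follows the form the caller looks for, and by a p, which is the upper normal tail of that score and is listed up to 0.1. The reads behind a peak are not in the lists, so its depth is unknown and no error could be given for a score. Among the 113 peaks of the members, 2 places had any p of 0.001 or less, and none of the 40 peaks that overlapped a member did. In the double-HDM, maternal-HDM and adult-HDM comparisons, such peaks were 1 of 3, 1 of 30 and 1 of 22 in MeDIP-seq. In hMeDIP-seq they were 1 of 31, 1 of 11 and 2 of 16. Over all peaks of the lists, the shares were 8.57%, 3.58% and 4.18% in MeDIP-seq and 7.16%, 4.12% and 13.0% in hMeDIP-seq.

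The double-HDM comparison listed no 5mC peak in any of the genes. In MeDIP-seq, 0 of the 10 genes were overlapped there, where 7.67% of all named genes and 4.71% of the 10598 genes of the members' length range (3776 to 24564 bp) were, so that none among 10 is near the background. With the maternal-HDM comparison, 7 were overlapped (Oas1a, Oas1b, Oas1c, Oas2, Oas3, Oasl1 and Oasl2), beside 34.4% of all genes and 39.3% of genes of that length. With the adult-HDM comparison, the count was 5 (Oas1b, Oas2, Oas3, Oasl1 and Oasl2), beside 27.9% and 29.0%.

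In hMeDIP-seq the double-HDM comparison stood at the other end. It had 5hmC peaks in 7 of the 10 genes (Oas1b, Oas2, Oas3, Oasl1, Oasl2, Irf3 and Irf7), where 39.3% of all named genes and 45.8% of genes of the members' length were overlapped. The maternal-HDM comparison had 1, Oasl1, beside 22.2% and 22.0%. The adult-HDM comparison had 4, Oas3, Oasl1, Oasl2 and Irf7, beside 24.3% and 27.0%. The lists differ in size, from 13338 to 89177 peaks, and within each assay the counts of members stand in the order of the background. With 10 genes and 1 library a group, no count was tested against its background.

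**Figure D1:**
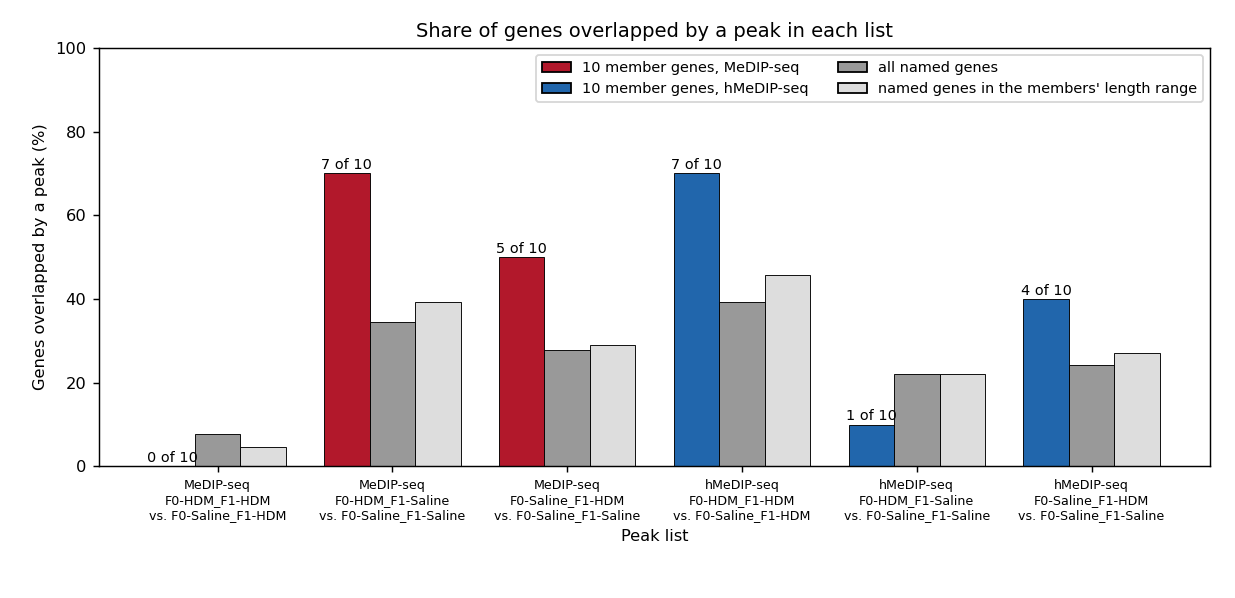
Percentage of genes overlapped by at least 1 peak (vertical axis) in each of the 6 peak lists (horizontal axis), for the 10 OAS and interferon factor genes (coloured bars, red for MeDIP-seq and blue for hMeDIP-seq), all 36297 named genes (grey) and the named genes of the members' length range (light grey). The members range from 0 of 10 in the MeDIP-seq list of the double-HDM comparison to 7 of 10 in 2 other lists, and every bar is a description with no error.

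Beside the genes, the double-HDM comparison was also lowest in MeDIP-seq and highest in hMeDIP-seq. In MeDIP-seq, 3, 6 and 6 of the 10 genes had a peak 1 to 15000 bp away in the double-HDM, maternal-HDM and adult-HDM comparisons, where the shares of all named genes were 9.19%, 49.5% and 39.2%. In hMeDIP-seq, 8, 7 and 7 did, beside 46.7%, 25.1% and 24.4%. Members that lie near each other share such peaks, so these counts are not of separate events. Just inside the 15000 bp lay a place upstream of Oasl2, in an intron of 4930519G04Rik, at 14555 bp (score 1.63), 14600 bp (1.98) and 14647 bp (2.75), and just outside lay peaks at 15688 bp (1.41) and 16802 bp (1.36) from Oasl2.

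**Figure D2:**
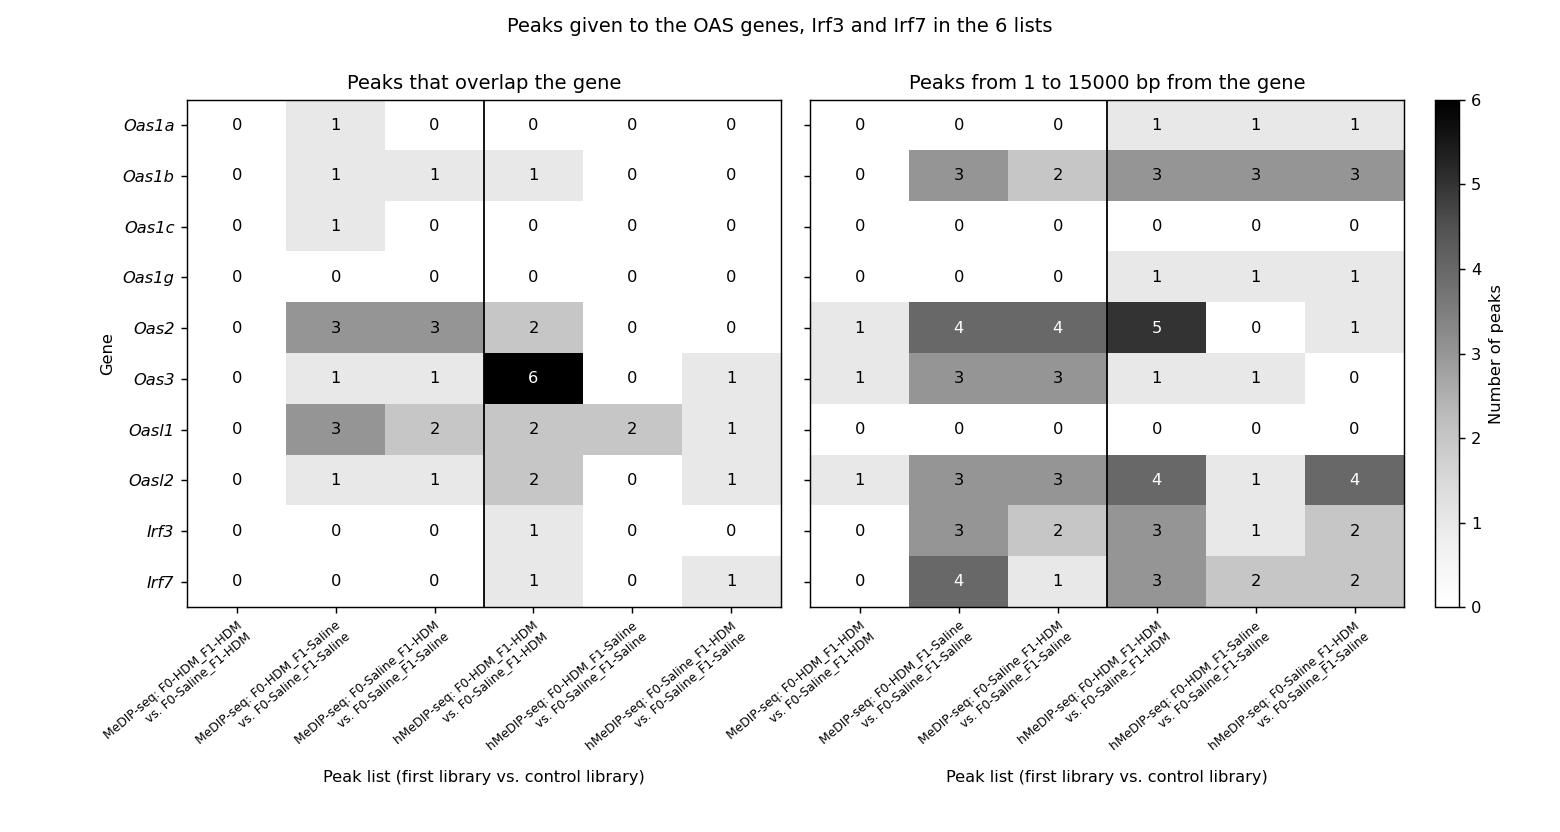
Number of peaks (shade and printed count) for each of the 10 genes (rows) in each of the 6 lists (columns), on the left for peaks that overlap the gene and on the right for peaks 1 to 15000 bp away. Oas3 has 6 overlapping hMeDIP-seq peaks in the double-HDM comparison, the highest count in the plot, and Oas1g has none in any list.

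Oas3, the long synthetase built of 3 repeated units, had the most peaks of any member in 1 list, and all 6 of these were 5hmC peaks in its coding exons. The gene lies on chromosome 5 from 120753098 to 120777661 on the minus strand (GRCm38, GENCODE vM21). In the hMeDIP-seq list of the double-HDM comparison, its 6 peaks were centred in coding exons 2 (score 1.71), 3 (1.62), 8 (1.54), 9 (1.38), 12 (2.69) and 14 (1.81). At exon 12 the adult-HDM comparison also listed a peak, with a score of 2.40 beside 2.69, and the maternal-HDM comparison listed no Oas3 exon. Its 5mC peaks lay instead in an intron (1.95 in the maternal-HDM comparison and 1.91 in the adult-HDM comparison).

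The sequence at the centre of the Oas3 exon 12 place is shown because it had the highest score inside the gene. It is 121 bases from the plus strand of GRCm38 (chr5:120758834-120758954), opposite to the gene, with its 5 CpG sites, the main substrate of both marks, in capitals.
Oas3 exon 12, 5hmC: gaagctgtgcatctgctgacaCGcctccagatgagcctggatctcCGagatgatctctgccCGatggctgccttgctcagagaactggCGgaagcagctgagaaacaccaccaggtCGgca

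Upstream of Oas3, 1 place at 673 to 713 bp from the gene, in an intron of Gm43069, held both marks. There the MeDIP-seq scores were 1.83 (maternal-HDM) and 1.66 (adult-HDM), and the hMeDIP-seq score was 2.01 (double-HDM). A further 5mC place, 2867 to 2917 bp upstream, had scores of 1.29 (double-HDM), 2.14 (maternal-HDM) and 2.07 (adult-HDM). Repeat annotation covered 83.8% to 88.0% of those peaks, and they held 4 CpG sites each.

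Oas2, whose product is a longer synthetase with a pair of such units, carried the highest 5mC scores inside any member. It lies from 120730333 to 120749853 on the minus strand. At 3 intronic places the scores in the maternal-HDM and adult-HDM comparisons were 2.33 and 2.33, 2.30 and 1.89, and 1.75 and 1.72. The MeDIP-seq list of the double-HDM comparison held none of these, and its 1 peak near Oas2 was 3186 bp past the gene, at a place with scores of 1.33 (double-HDM), 1.54 (maternal-HDM) and 1.81 (adult-HDM). Its 5hmC peaks, in the double-HDM comparison alone, lay in coding exon 4 (1.50) and in an intron over the noncoding gene Gm43068 (1.43).

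The Oas2 places are shown because neither centre holds a CpG. The second centre (chr5:120745352-120745472) is a short unit repeated from end to end. Repeat annotation covers 64.2% and 66.4% of the peaks at the first place and 69.7% and 74.5% of those at the second. In the peaks at the second place 48.1% and 51.9% of all 51-bp windows, the length of the reads, have another exact copy in the genome. At the other (chr5:120743561-120743681) no such window has one, and the whole peaks, 399 and 396 bp long, hold 7 CpG sites away from the centre.
Oas2 intron, 5mC, score 2.33: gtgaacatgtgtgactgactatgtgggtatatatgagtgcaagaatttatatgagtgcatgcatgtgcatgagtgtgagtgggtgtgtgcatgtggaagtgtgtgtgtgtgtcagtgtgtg
Oas2 intron, 5mC, score 2.30: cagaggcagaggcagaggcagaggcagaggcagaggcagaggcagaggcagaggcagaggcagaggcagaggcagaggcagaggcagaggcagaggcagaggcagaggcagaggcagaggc

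The Oas1 genes, the short genes of the family with a single unit, had few overlapping peaks. Oas1a (120896256 to 120907521) and Oas1c (120800194 to 120812514) each had 1 overlapping peak in all, a 5mC peak in an intron in the maternal-HDM comparison, with scores of 1.3 and 1.39. The Oas1 genes are close copies of each other, and 57.1% of the 51-bp windows of the Oas1a peak have another exact copy, so that the gene it belongs to is uncertain. Oas1g had no overlapping peak in any list. Oas1b (120812635 to 120824163), the polymorphic pseudogene, had an intronic 5mC place (scores 1.42 and 1.32 in the lists against F0-Saline_F1-Saline). In the double-HDM comparison it had a 5hmC peak in exon 6, which is annotated as coding (1.78).

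Just past the 3′ end of Oas1b, 32 to 58 bp away, lay a 5mC place with a score of 1.85 in the maternal-HDM and 2.01 in the adult-HDM comparison. Further on, toward Oas1f, the hMeDIP-seq lists held 3 places, 1324 to 5573 bp past Oas1b. At the farthest of them the scores were 3.07 in the double-HDM comparison, 2.35 in the maternal-HDM comparison and 3.06 in the adult-HDM comparison. All 51-bp windows of those peaks have another exact copy, with up to 2076 copies of 1 window, and repeat annotation covers them whole. A read of such a window fits many positions, and the part of this in the result was not tested. Between Oas1g and Oas1a, a further 5hmC place had scores of 2.54 (double-HDM), 1.42 (maternal-HDM) and 1.32 (adult-HDM), with 29.4% to 34.2% of its windows in other copies.

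**Figure D3:**
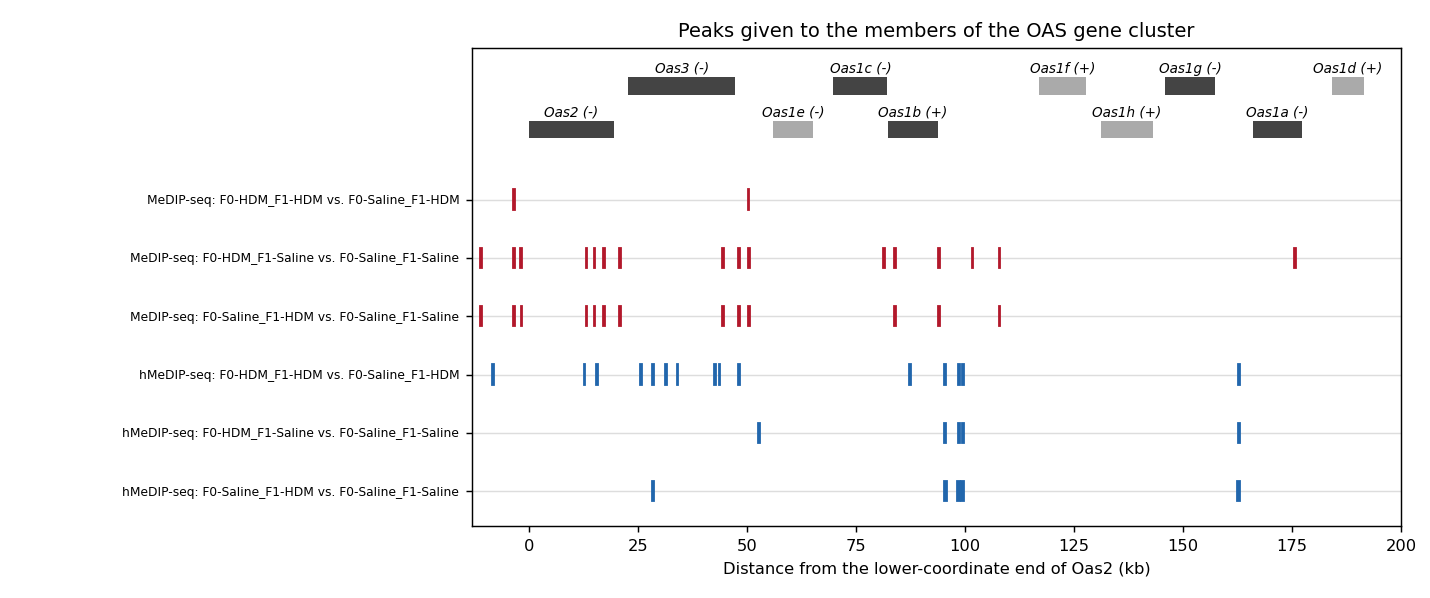
Peaks given to the members in the OAS gene cluster, by distance in kb from the lower-coordinate end of Oas2 (horizontal axis), with 1 row for each list (red bars for MeDIP-seq, blue for hMeDIP-seq) and genes above, members in dark grey and other Oas1 genes in light grey with their strand. The MeDIP-seq list of the double-HDM comparison has 2 peaks here, both outside the genes, and the row of 6 hMeDIP-seq peaks within Oas3 is seen in the double-HDM comparison.

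Oasl1 was the member most often overlapped, with 10 peaks in 5 of the 6 lists. In the mouse its product, which lacks synthetase activity, holds back the translation of Irf7 mRNA. The gene lies from 114923240 to 114937915 on the plus strand, and its last exon, exon 6, held both marks. There the MeDIP-seq scores were 1.50 in the maternal-HDM comparison and 1.65 in the adult-HDM comparison. The hMeDIP-seq scores were 2.31 in the double-HDM comparison, 1.32 in the maternal-HDM comparison and 1.56 in the adult-HDM comparison. It was the only place inside a member at which both assays had a peak, and the double-HDM comparison had no MeDIP-seq peak there.

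The exon 6 sequence is shown because peaks of both assays met there (chr5:114937104-114937224, plus strand, coding, CpG in capitals). It is unique at the length of a read and holds 7 CpG sites in 121 bases.
Oasl1 exon 6: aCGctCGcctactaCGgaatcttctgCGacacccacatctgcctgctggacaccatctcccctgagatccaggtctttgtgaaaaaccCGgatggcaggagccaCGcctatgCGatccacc

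At the other end of Oasl1, a 5mC peak was centred 331 bp after its start in coding exon 1, with a score of 1.58 in the maternal-HDM comparison and 1.38 in the adult-HDM comparison. With 19 CpG sites it was the most CpG-rich 5mC place inside a member. A 5hmC place near exon 3 was listed in the double-HDM comparison (1.55) and the maternal-HDM comparison (1.39).

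Oasl2, which encodes an active synthetase with ubiquitin-like domains, was overlapped by 5 weak peaks. It lies from 114896936 to 114912234 on the plus strand. Its first exon held a 5mC peak centred 265 bp after the start in the maternal-HDM comparison (1.42) and 246 bp after it in the adult-HDM comparison (1.33), with 10 CpG sites. Coding exon 4 held a 5hmC peak in the double-HDM comparison (1.42) and the adult-HDM comparison (1.39), and the double-HDM comparison had 1 more in an intron (1.50). The highest p of these 5 peaks was 0.0918 and the lowest 0.0673.

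The strong peaks that the lists give to Oasl2 are elsewhere. They lie 9884 to 10112 bp past its end, in an intron of the antisense gene Gm13822, and end 508 to 785 bp before the start of Oasl1, which the lists do not name there because Gm13822 fills that side. The MeDIP-seq scores at this place were 16.2 in the double-HDM comparison, 22.2 in the maternal-HDM comparison and 22.2 in the adult-HDM comparison. The hMeDIP-seq scores were 17.9 (double-HDM), 16.6 (maternal-HDM) and 6.0 (adult-HDM). All 6 lists, which share libraries within an assay, had a peak there, and in 5 of them it ranked between 26 and 34 among all peaks.

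In the hMeDIP-seq list of the adult-HDM comparison the peak ranked 532 and was shifted, from 114922119 to 114922455, so that it shares only its upper end with the others. The other 5 peaks fell between 114922312 and 114922732. Apart from this place, no peak near Oasl2 had a score above 2.75. That score belonged to the 4930519G04Rik intron place, with 2.75 in double-HDM and 1.75 in adult-HDM hMeDIP-seq, and 1.98 in maternal-HDM and 1.63 in adult-HDM MeDIP-seq. Of its 51-bp windows, 84.9% to 86.6% have another exact copy, and repeat annotation covers it whole.

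The sequence of the strong Gm13822 intron place is shown because it holds a repeat. Capitals mark bases within 12-bp words that also occur in the tandem satellite array at the start of the chromosome 9 assembly (period 234 bp), the major satellite of mouse pericentromeric DNA. These words covered 26.1% to 32.4% of the 5 strongest peaks and 0.297% of the shifted one. In the 6 lists, 0.138% to 1.10% of all peaks were covered to 20% or more. By contrast, only 3.23% to 4.18% of the 51-bp windows have an exact copy elsewhere, and the peaks hold 5 to 11 CpG sites. Satellite sequence is a known place for strong peaks in captured DNA, and its part in these scores was not tested.
Gm13822 intron, chr5:114922394-114922634, plus strand: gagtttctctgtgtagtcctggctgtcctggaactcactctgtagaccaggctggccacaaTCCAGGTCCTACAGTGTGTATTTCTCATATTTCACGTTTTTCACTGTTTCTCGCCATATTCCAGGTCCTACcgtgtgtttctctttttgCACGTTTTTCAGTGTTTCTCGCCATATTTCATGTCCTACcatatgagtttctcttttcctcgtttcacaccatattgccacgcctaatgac

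**Figure D4:**
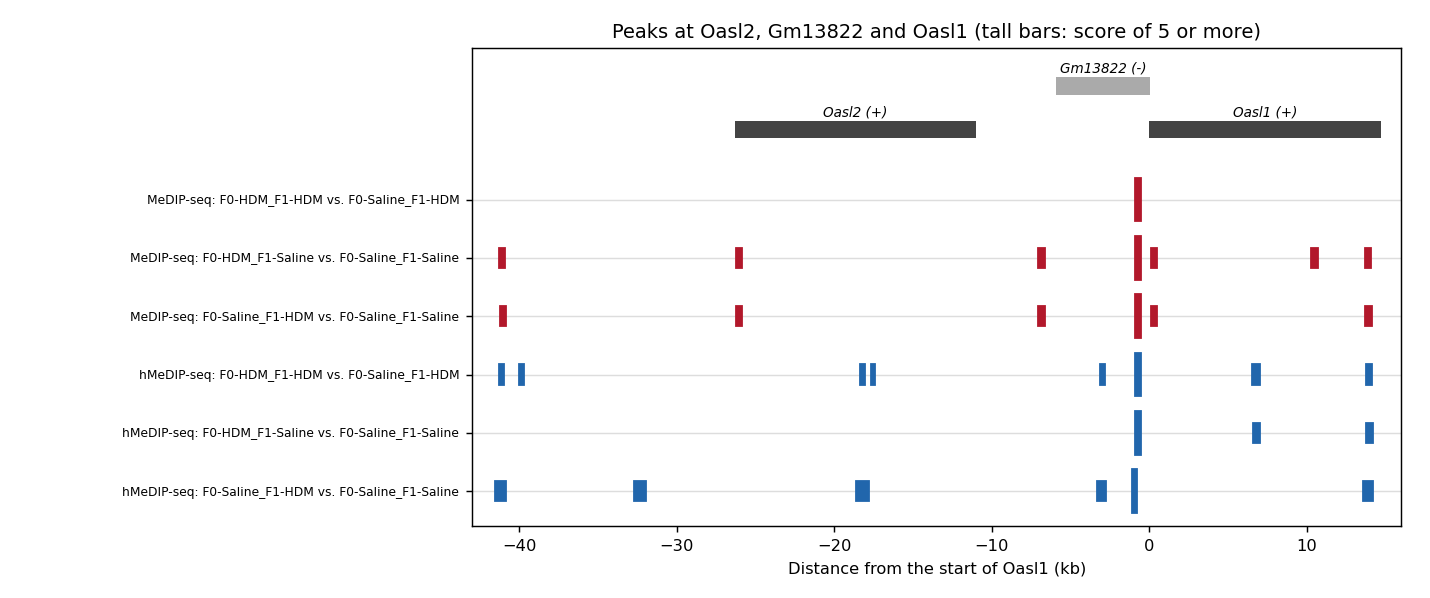
Peaks at Oasl2, Gm13822 and Oasl1 by distance in kb from the start of Oasl1 (horizontal axis), with 1 row for each list (red bars for MeDIP-seq, blue for hMeDIP-seq, tall bars for scores of 5 or more) and gene spans with their strand above. The tall bars stand in all 6 rows just before Oasl1, with scores from 6.0 to 22.2, while every other peak in the plot has a score of 2.75 or less.

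Irf3 had 1 overlapping peak, and it had the highest score of all 40. This 5hmC peak of the double-HDM comparison, on chromosome 7 from 45000527 to 45000891, was centred in coding exon 6 (score 2.86) and held 14 CpG sites. Irf3 itself spans 44997648 to 45002848 on the plus strand, and neither other hMeDIP-seq list nor any MeDIP-seq list had a peak in it. The stronger peaks near Irf3 lay in the neighbouring gene Scaf1. At coding exon 7 of Scaf1, 3943 to 4485 bp past Irf3, the hMeDIP-seq scores were 4.30 in the adult-HDM comparison and 1.42 in the double-HDM comparison. MeDIP-seq gave 1.54 in the maternal-HDM comparison and 1.52 in the adult-HDM comparison at the same exon, in a stretch with 36 CpG sites. At another Scaf1 place, 9524 to 9753 bp past Irf3, the hMeDIP-seq scores were 2.93 in the double-HDM comparison and 1.65 in the adult-HDM comparison, the opposite order.

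Irf7 had 5hmC peaks alone. It lies on chromosome 7 from 141262706 to 141266481 on the minus strand, and its 2 overlapping peaks met in the body of the gene, with scores of 1.75 in the double-HDM comparison, in coding exon 8, and 1.51 in the adult-HDM comparison. The maternal-HDM comparison had none. The neighbour Phrf1 held the place with more peaks, in its coding exon 14, 2600 to 2769 bp past the 3′ end of Irf7. There hMeDIP-seq scores were 3.02 (double-HDM), 1.75 (maternal-HDM) and 2.86 (adult-HDM). The MeDIP-seq scores were 1.48 and 1.51 in the lists against F0-Saline_F1-Saline, and the double-HDM comparison had no MeDIP-seq peak there.

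**Figure D5:**
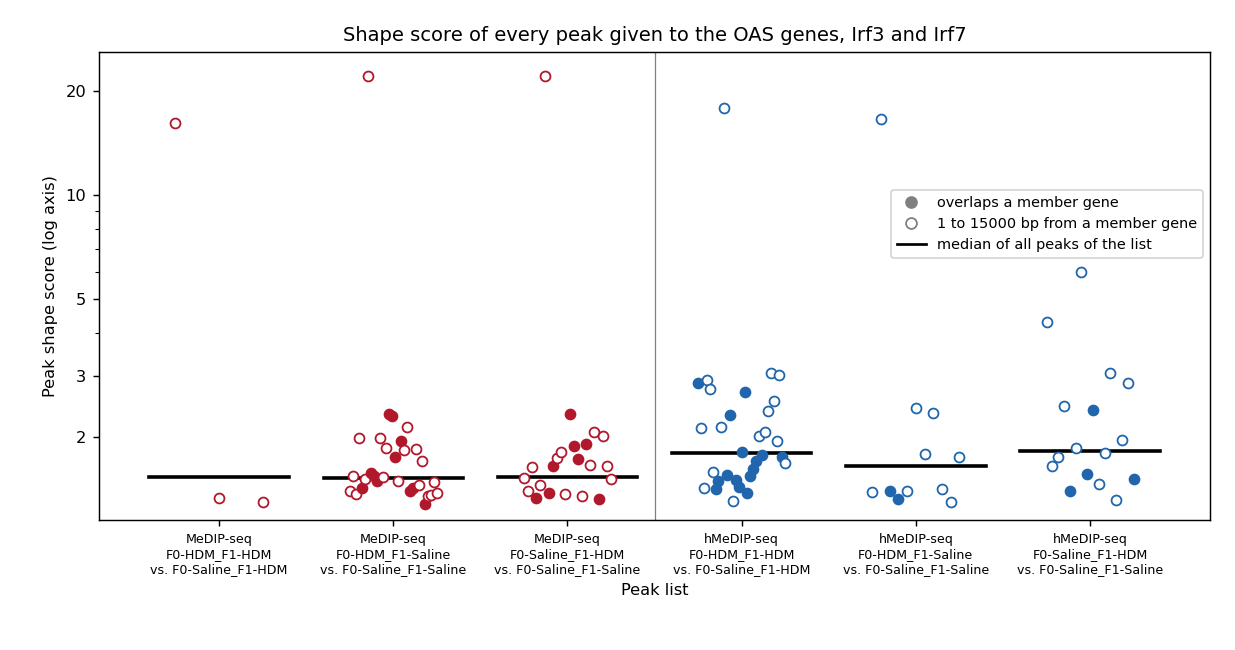
Shape score on a log axis (vertical) of each peak given to the 10 genes in each list (horizontal axis), filled for peaks that overlap a gene and open for peaks 1 to 15000 bp away, with the black line at the median of all peaks of the list. Filled points lie at 2.86 or below in every list, and the 6 points at 6.0 and above are the Gm13822 intron place.

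The median score of the peaks that overlapped a member was 1.54 and 1.69 in the MeDIP-seq lists of the maternal-HDM and adult-HDM comparisons, where all peaks had medians of 1.52 and 1.53. In hMeDIP-seq it was 1.62, 1.36 and 1.54 in the double-HDM, maternal-HDM and adult-HDM comparisons, where all peaks had 1.8, 1.65 and 1.82.

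The assays differed in which part of a member they marked. Of the 21 hMeDIP-seq peaks that overlapped a member, 17 were centred in coding exons, and of the 19 MeDIP-seq peaks 4 were. In the double-HDM, maternal-HDM and adult-HDM comparisons, 13 of 15, 1 of 2 and 3 of 4 hMeDIP-seq peaks were, where 37.9%, 37.2% and 30.7% of all peaks that overlap a gene were. That background takes in genes of any length, with no match to the members. Oas3 alone held 6 of the 13. In MeDIP-seq it was 2 of 11 (maternal-HDM) and 2 of 8 (adult-HDM), beside 8.90% and 7.66%. The CpG content followed the same line, with a median of 3.57 CpG per 100 bp over the 21 hMeDIP-seq peaks and 1.67 over the 19 MeDIP-seq peaks. Over all peaks of a list, the medians were 3.47 to 4.08 in hMeDIP-seq and 0.735 to 1.05 in MeDIP-seq. Both kinds of value are described without a test, since several peaks share a place.

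The assays were also compared by whether their peaks met. In the double-HDM comparison, 1 of the 3 MeDIP-seq peaks of the members shared a base with an hMeDIP-seq peak of the same comparison, where 15.9% of all MeDIP-seq peaks did. It was 3 of 30 in the maternal-HDM comparison (7.85% of all) and 5 of 22 in the adult-HDM comparison (7.45% of all). These are few peaks, and no test was made. The Gm13822 intron place gave the 1 shared peak of the double-HDM comparison and 1 in each of the others. The shares thus rest in part on that place. Further pairs include Oasl1 exon 6 and the Phrf1 exon.

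The narrow promoter windows that could be searched carried no peak in any list. RefSeq start sites on GRCm38.p6 were at hand for 8 of the members (not Oas1b and Oas2), and 0 of these 8 windows, from 250 bases before to 50 after the start, met a peak. Of 32851 such windows, 0.234% to 3.01% did, depending on the list, so that none among 8 is near the background. Peaks did lie near starts outside these windows. The first-exon 5mC peaks of Oasl2 and Oasl1 were centred 246 to 331 bp after the start of the gene span. These peaks also cover another GENCODE start of their own gene, 152 and 171 bp from the centres in Oasl2 and 136 bp in Oasl1. The result of 0 thus holds for the RefSeq starts used, and not for every annotated start. The strong Gm13822 intron peaks ended 508 to 785 bp before the start of Oasl1. The interferon-stimulated response element, at which interferon-activated factors and Irf proteins bind, was searched on both strands as GAAA, any 2 bases and GAAA. It was found in 4 of the 8 windows, Oas1a, Oas1c, Oas1g and Oas3, in 11 of 36 windows of the pathway genes below, and in 3.44% of all windows.

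These elements are shown, 5′ to 3′ along each gene, because such elements are the known targets of interferon-activated factors and no peak lies on them. Capitals mark the match, which in Oas1c reads on the opposite strand, and in Oas1a, Oas1c and Oas1g 2 matches overlap. The Oas1a and Oas1g matches are the same 16 bases, placed 20 to 5 and 18 to 3 bases before the start. The Oas1c match, 114 to 99 bases before the Oas1c start, holds these 16 bases on the other strand. It runs from 120812613 to 120812628, and so lies just before the start of Oas1b at 120812635, a gene that reads away from Oas1c.
Oas1a, chr5:120907526-120907560: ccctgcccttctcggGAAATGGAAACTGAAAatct
Oas1g, chr5:120887614-120887646: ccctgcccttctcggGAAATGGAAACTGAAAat
Oas1c, chr5:120812598-120812643: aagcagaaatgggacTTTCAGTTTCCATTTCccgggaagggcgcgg
Oas3, chr5:120777710-120777749: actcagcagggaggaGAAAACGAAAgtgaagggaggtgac

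Other genes of the pathway gave a frame for these counts. Of 42 listed sensors, kinases, factors, receptors, other OAS genes and effectors, 37 are named beside a peak, and 26 were overlapped in at least 1 list. In MeDIP-seq 2, 19 and 16 of the 37 were overlapped (5.41%, 51.4% and 43.2%) in the double-HDM, maternal-HDM and adult-HDM comparisons. In hMeDIP-seq 17, 9 and 10 were (45.9%, 24.3% and 27.0%). Within each assay the order of the lists was that of all named genes, given above.

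By the lowest p, the leading 5mC gene in all 3 MeDIP-seq lists was Ifnar2, a chain of the type I interferon receptor. Its intronic place had scores of 1.8 in the double-HDM comparison, 2.34 in the maternal-HDM comparison and 2.65 in the adult-HDM comparison. Ikbke, a kinase that can act on Irf3 and Irf7, had an intronic place with scores of 1.33 (double-HDM), 2.20 (maternal-HDM) and 2.21 (adult-HDM). Irf8, the factor of monocytes and dendritic cells (score 2.32), and the signal transducer Stat2 (1.92) were each among the leading 3 in 1 list.

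Among 5hmC peaks, exon 7 of Irf8 had scores of 4.14 (double-HDM), 2.50 (maternal-HDM) and 2.63 (adult-HDM). Tbk1, the kinase that activates Irf3, was also among the leading 3 in each, with a peak in coding exon 6 in the double-HDM comparison (2.97) and intronic peaks in the maternal-HDM comparison (1.86) and the adult-HDM comparison (4.05). The RNA sensors Dhx58 (2.84) and Ddx58 (1.86) and the receptor chain Ifnar1 (2.32) were each among the leading 3 in 1 list. Of the other OAS genes of the cluster, Oas1d, Oas1e and Oas1h were overlapped in none of the lists.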

How the data were processed

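Lung DNA of 4 groups was fragmented to about 200 bp, captured with the MethylCap and hMethylCap kits and sequenced as 1 library per group and assay. Bowtie 0.12.9, CASAVA 1.8.0 and FastQC are listed in the submitters' processing notes. Peaks came from CLC Genomics Workbench, according to the methods of the paper. How reads with several matches were handled is not given in the sources used here. The authors deposited 6 peak lists on mm10 (GRCm38), each peak with a shape score, a p-value, other columns for its position and length, and the closest gene on each side. The deposited p-values equalled, when checked, the upper tail of a normal distribution at the score. The depth behind a peak is unknown, and reads were not analysed here.

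Members were matched by symbol in the gene columns, with 15000 bp as the window. Each list names 1 gene per side, so that for Oasl1 no peak is listed 1 to 15000 bp away, while 27 lie so by coordinates. For Oas1c, 0 are listed and 8 lie so by coordinates. The same counts are 9 and 17 for Oas3, and 11 and 17 for Irf3. Peaks of the lists were joined into 1 place where they shared at least 1 bp, which gave 58 places at the members. Exons and starts came from GENCODE vM21, sequence from GRCm38.p6 and promoters from RefSeq. Repeat annotation is the soft masking of the assembly, and satellite words are 12-bp words of chromosome 9 from 3000001 to 3040000. The background is the share of all genes that the lists name. Named are all 10 members, up to 3 pathway genes per list with the lowest p, and neighbours that hold a member's peak. The members, gene lists and alternatives were chosen with earlier results of these data known. Alternatives tried were stricter limits on p (0.001 and 1e-06), gene spans, a start within 2000 bp, windows of 5000 and 50000 bp, no places found in all 6 lists and an overlap of 50% of the shorter peak. A window by coordinates was added after the data were seen. Overlap, copy and word searches were tested on simulated data. Computations used numba 0.67.0, scipy 1.17.1, numpy 2.4.6 and pandas 2.3.3 under Python 3.11.15, with plots by matplotlib 3.10.9. The sequence of 1 place is not reported here.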

Additional observations from a re-analysis of the deposited data

How the results depend on the processing

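No paired analysis was possible because each group has 1 library and no result comes from a test. At a p of 0.001 or less, and at 1e-06 or less, 0 members were overlapped by a peak in any list, and 0 peaks were left in them. Beside the genes, the Gm13822 intron place kept 1 member, Oasl2, in each list, and at 0.001 the adult-HDM comparison in hMeDIP-seq had 2, with Irf3. Pathway genes overlapped at 0.001 or less fell to 0 in the 3 MeDIP-seq lists and to 1, 0 and 1 in hMeDIP-seq. By a start within 2000 bp, the double-HDM comparison had 1 member in MeDIP-seq, Oasl1 through the Gm13822 intron place, and the maternal-HDM comparison had 2 in hMeDIP-seq, Oasl1 and, through a peak 1932 bp from one of its starts, Irf3. A window of 5000 bp left 5, 4 and 4 members in hMeDIP-seq. With 50% of the shorter peak, 0 places were in all 6 lists, because of the shifted hMeDIP-seq peak, and 3 of the 22 MeDIP-seq peaks of the adult-HDM comparison met an hMeDIP-seq peak. Gene spans, a window of 50000 bp and a window by coordinates moved no count by more than 1.5 times. Leaving out the place in all 6 lists was tried only on overlap counts. It could not change them, because that place, in the Gm13822 intron, overlaps no member. Counts beside the genes were not repeated without it. It was the only peak of Oasl2 within 15000 bp in double-HDM MeDIP-seq and in maternal-HDM hMeDIP-seq. With 1 pooled library per group, spread between mice is unknown, and which mark changed in which mice cannot be told apart from differences between libraries.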
